A study of Mus musculus with 26 samples.

Results

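The cytosolic ribosomal protein genes encode the proteins of the ribosome that translates nuclear-coded mRNA. They were taken from the tables by symbol: Rpsa, Rplp0, Rplp1 and Rplp2, and every symbol made of Rps or Rpl, a number and at most one of the endings a, x, l or l1. Pseudogene symbols, the Rps6k kinases and the mitochondrial Mrp genes were thereby left out. The rule found 83 of 24340 genes in both tables, of which 48 encode large-subunit proteins, 32 small-subunit proteins and 3 the P-stalk of the large subunit. They lay on 19 chromosomes, with 14 on chromosome 7 and 7 on chromosome 11, the chromosome of Hic1. Hic1 encodes a zinc-finger transcriptional repressor, and it was deleted in the mice studied here. Poly(A) RNA was sequenced from mouse forelimbs at E13.5 (days of embryonic age) in 26 libraries, and the dams of all groups were over 7 weeks old. The conventional table held Hic1 +/+ (wild type, n = 3), Hic1 +/- (heterozygote, n = 3) and Hic1 -/- (knockout, n = 3). The conditional table held Hic1 f/+ without Cre (control, n = 5), PxCre; Hic1 f/+ (conditional heterozygote, n = 5) and PxCre; Hic1 f/f (conditional knockout, n = 7). PxCre is the Prrx1-Cre transgene, which recombines floxed alleles in limb bud mesenchyme and not in blood, endothelium or epidermis. All conditional animals carried at least 1 floxed allele, and both other groups differed from the control by the Cre transgene as well as by Hic1. The labels did not say whether replicates came from separate embryos or litters, so the tests measure the spread between these libraries only.

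A eukaryotic ribosome holds one copy of nearly every ribosomal protein, and cells keep the production of these proteins in balance with ribosomal RNA. The mRNAs are short and abundant, and they begin with a run of pyrimidines, the 5′ terminal oligopyrimidine motif, through which mTORC1 and the RNA-binding protein LARP1 control their translation. MYC-family factors and GABP, an ETS-family factor, are known activators of these genes. Free RPL5 and RPL11 bind MDM2 and stabilise p53 when ribosome assembly fails. In mouse embryos, mutations of several members, Rpl38 and Rpl24 among them, alter the skeleton.

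RefSeq promoter windows (GRCm38.p6) were found for 62 of the 83 genes. They are shown here for the pyrimidine run, a sequence feature that the choice by symbol did not use. A run of at least 7 C or T bases within 15 bases of an annotated start stood in 34 of the 62 genes (54.8%), compared with 21.3% of the 27025 genes with a window, 16.2% of mitochondrial ribosomal protein genes and 17.2% of respiratory chain genes. The converse run of at least 7 A or G bases stood in 6.45% of the ribosomal protein genes and in 23.1% of all genes. The windows below run from 30 bases before the start to 20 bases after it, 5′ to 3′ on the transcribed gene's own strand, with the longest C/T run near the start in capitals. Rps6 lay at chr4:86857348-86857397 (minus), Rplp2 at chr7:141447621-141447670 (plus), Rpl28 at chr7:4792935-4792984 (plus), Rpl38 at chr11:114668550-114668599 (plus) and Rps10 at chr17:27635225-27635274 (minus). Rpl7l1 at chr17:46782637-46782686 (minus) and Rpl26 at chr11:68901536-68901585 (plus) are shown as members without such a run.
Rps6: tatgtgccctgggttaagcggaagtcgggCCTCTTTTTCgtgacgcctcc
Rplp2: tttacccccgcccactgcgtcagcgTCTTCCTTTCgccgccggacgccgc
Rpl28: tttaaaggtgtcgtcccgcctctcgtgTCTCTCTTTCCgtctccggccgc
Rpl38: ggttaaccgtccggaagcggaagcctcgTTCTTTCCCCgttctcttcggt
Rps10: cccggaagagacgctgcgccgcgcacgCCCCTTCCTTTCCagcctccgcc
Rpl7l1: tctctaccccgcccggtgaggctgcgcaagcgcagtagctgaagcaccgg
Rpl26: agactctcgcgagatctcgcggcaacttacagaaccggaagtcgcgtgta

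Over the whole windows of 250 bases before to 50 bases after the start, CCGGAAG, a core motif of ETS-family factors, was present on either strand in 25 of 62 ribosomal protein genes (40.3%). It was present in 9.93% of all genes and in 36.8% of mitochondrial ribosomal protein genes. GGGCACCC or GGGCAACC, forms of the element bound by HIC1, stood on either strand in 1 member, Rps10 (1.61%), compared with 2.26% of all genes. Its shorter core GGGCA, which both forms contain, was found in 54.8% of the members and 56.5% of all genes. A match is a description of the letters in the window and does not show binding.

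Hic1 followed the labels. It was listed at 49.1 to 64.2 FPKM (a fragment count divided by transcript length and by the library's mapped fragments) in conventional wild type, 30.9 to 37.3 in heterozygotes and 1.23 to 2.56 in knockouts, and at 52.4 to 65.8, 28.0 to 34.9 and 2.76 to 6.16 in the conditional groups. All 7 markers of forelimb mesenchyme were expressed in both tables, and the hindlimb genes Tbx4 and Pitx1 summed to at most 12.9 FPKM in any library. One library was unlike the rest of the conventional table, knockout replicate 1. Its median correlation with the remaining 8 was 0.869, whereas that of every other conventional library was 0.970 or more, and 42.9% of all tested genes lay above all 8 of them and 39.6% below all 8. The counts and medians of the members in comparisons with the knockout are given with and without it. Of the 7 limb markers, 3 lay above and 2 below all 8 other libraries in it. Prrx1, one of the latter, was at 32.9 FPKM, compared with 102 to 151 in the other 8. The 3 primitive erythroid globins summed to 5590 FPKM in it and to 2139 to 3991 in the others. The part of such differences in the results below was not tested. In a bulk sample, fewer cells of a type and less RNA per cell cannot be told apart.

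Ribosomal protein mRNAs were among the most abundant transcripts of the limb. The mean of the 81 tested genes ranged from 1.14 to 2065 FPKM over the conventional libraries, with a median of 569 FPKM, compared with 13.6 FPKM for all tested genes. In the conditional table the range was 2.24 to 3048 FPKM and the median 924 FPKM, compared with 13.4 for all tested genes. Members made up 48 of the 100 most abundant genes in the first table and 60 of 100 in the second. The authors' tables were made separately, so these levels are set side by side and were not tested against each other. Rps26, a small-subunit protein at the mRNA exit, led the conventional table with 2065 FPKM, followed by Rps15 (1855), Rplp2 (1815), Rps14 and Rps9. Rpl41, the smallest ribosomal protein, led the conditional table with 3048 FPKM, followed by Rps26 (2645), Rpl32 (2110), Rplp1 (2026) and Rps15 (1902). FPKM divides by length, and 47 of the members had transcripts under 1000 bases (median 937, compared with 2522 for all genes).

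The tissue-restricted paralogs were at the other end of the order. Rpl10l, the retrogene that replaces Rpl10 in mouse male germ cells, was listed at 0 in all 26 libraries. Rpl3l, the paralog used in heart and skeletal muscle, had means of 0.0448 and 0.0265 FPKM in the conventional and the conditional table, while Rpl3 had 392 and 672. These 2 genes fell below the minimum mean of 1 FPKM, which left 81 of 83 members for testing in each table. Rpl39l, known from mouse male germ cells, reached 1.14 and 2.24 FPKM, compared with 465.7 and 675 for Rpl39. Rpl22l1, the paralog that Rpl22 represses in mouse, averaged 260 and 295 FPKM, compared with 194 and 244 for Rpl22 itself. It lay above Rpl22 in all 17 conditional libraries and in 7 of 9 conventional ones. The order was the reverse in conventional knockout replicate 1 (149 and 231 FPKM) and wild-type replicate 1 (195 and 210 FPKM). Rps27l, a p53 target paralog, stood at 226 and 235 FPKM, Rps4l at 61.6 and 77.5 and Rpl7l1, a homolog of Rpl7 known from nucleolar pre-ribosomes, at 50.2 and 51.4. Rps4x, one of 4 X-linked members, stood at 1011 and 1459 FPKM.

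Of the 83 members, 34 shared their listed locus with another row, mostly that of a small nucleolar RNA, a microRNA or a neighbouring gene. Some low values belonged to the few rows that shared it with a copy of the gene. The pairs described here were chosen after their values were seen. Rps27 was listed at 2.86 to 6.68 FPKM over all 26 libraries, whereas Rps27rt, a separate gene on chromosome 9 in the annotation, was listed in the files at the Rps27 locus (chr3:90212667-90213648, mm10) with 1719 to 3005 FPKM. Reads of such pairs cannot be told apart from the tables, so the value of the Rps27 row cannot be read as the level of its mRNA alone. Rpl30 (chr15:34440506-34443276) was listed at 45.2 to 77.2 FPKM and the pseudogene row Gm12191 at the same locus at 333 to 947. Rpl34 shared its locus with the Rpl34-ps1 row in the same way. For these 3 pairs no group of the conventional table stood clear of another in the summed rows.

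Rpl26, whose protein lies near the polypeptide exit tunnel, gave another pattern in the conventional table. Its row held 60.1, 20.1 and 37.4 FPKM in the wild-type libraries, 55.7, 29.4 and 34.6 in heterozygotes and 76.6, 41.8 and 68.4 in knockouts, with all groups overlapping. Gm15772, a transcribed pseudogene for which RefSeq gives Rpl26 as a synonym and which GENCODE places on chromosome 5, was listed at the Rpl26 locus (chr11:68901566-68904534, mm10). That row held 192, 206 and 203 FPKM in the wild-type libraries, 526.0, 506 and 445 in heterozygotes, and 915, 879 and 435 in knockouts. All 6 libraries with a deleted allele lay above the 3 wild-type libraries, in a row picked after its values were seen. Of all tested genes, 6.57% were wholly higher in knockouts than in wild type and 2.43% wholly higher in heterozygotes. The log2 fold change was 1.81 (SE 0.26) between knockout and wild type and 1.29 (SE 0.26) between heterozygote and wild type, and neither passed limma's test over all genes (adjusted p = 0.151 and 1.00). The knockout value was 1.62 without replicate 1 (limma adjusted p = 0.104). The summed rows gave 239 ± 12.9 FPKM in wild type (SD, n = 3), 532 ± 51.3 in heterozygotes (n = 3) and 805 ± 264 in knockouts (n = 3). In the conditional table the summed rows were 1342 ± 244 FPKM in controls (SD, n = 5), 1192 ± 187 in conditional heterozygotes (n = 5) and 1300 ± 225 in conditional knockouts (n = 7), and these groups overlapped. The Rpl26 locus lies 6.26 megabases from Hic1, and the parental origin of that stretch in the deleted chromosomes was not analysed here.

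**Figure D1:**
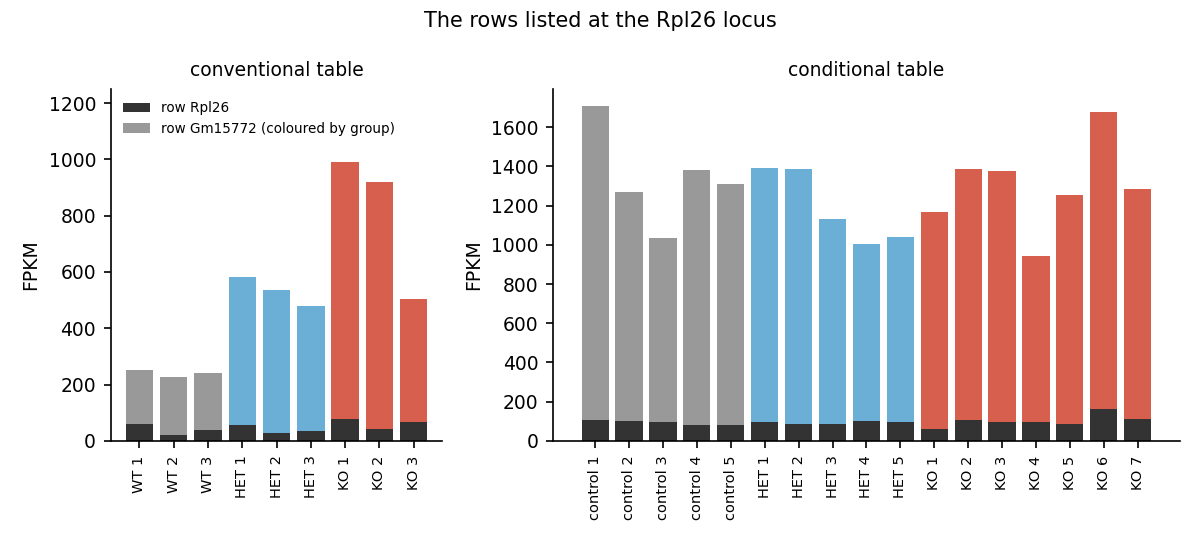
FPKM of the rows listed at the Rpl26 locus in each library, stacked, with Rpl26 in black and Gm15772 above it coloured by group, for the conventional table (left) and the conditional table (right, another scale). The 3 wild-type bars reach 226 to 252 FPKM, below all 6 bars of libraries with a deleted Hic1 allele, while the conditional groups overlap. The pair of rows was picked after its values were seen.

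The share of all summed FPKM that ribosomal protein genes took up overlapped between the groups of each table. In the conventional table it was 12.9%, 12.2% and 11.96% in wild type, 13.3%, 12.3% and 11.3% in heterozygotes, and 16.4%, 13.1% and 11.5% in knockouts. Knockout replicate 1 was the highest library and the groups overlapped. The group means were 12.3 ± 0.47% (SD, n = 3), 12.3 ± 1.00% (n = 3) and 13.7 ± 2.49% (n = 3), and the knockout mean was 12.3% without replicate 1. In the conditional table the controls held 18.8%, 16.6%, 15.3%, 17.5% and 16.7%, the conditional heterozygotes 17.5%, 17.7%, 15.7%, 14.8% and 14.7%, and the conditional knockouts between 14.4% and 19.1% with a median of 16.6%. The conditional knockouts held both the lowest and the highest value. The ratio of large-subunit to small-subunit FPKM stayed within 0.895 to 0.971 over the conventional libraries and within 1.085 to 1.116 over the conditional ones. Its lowest conventional value, 0.895, was that of knockout replicate 1.

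**Figure D2:**
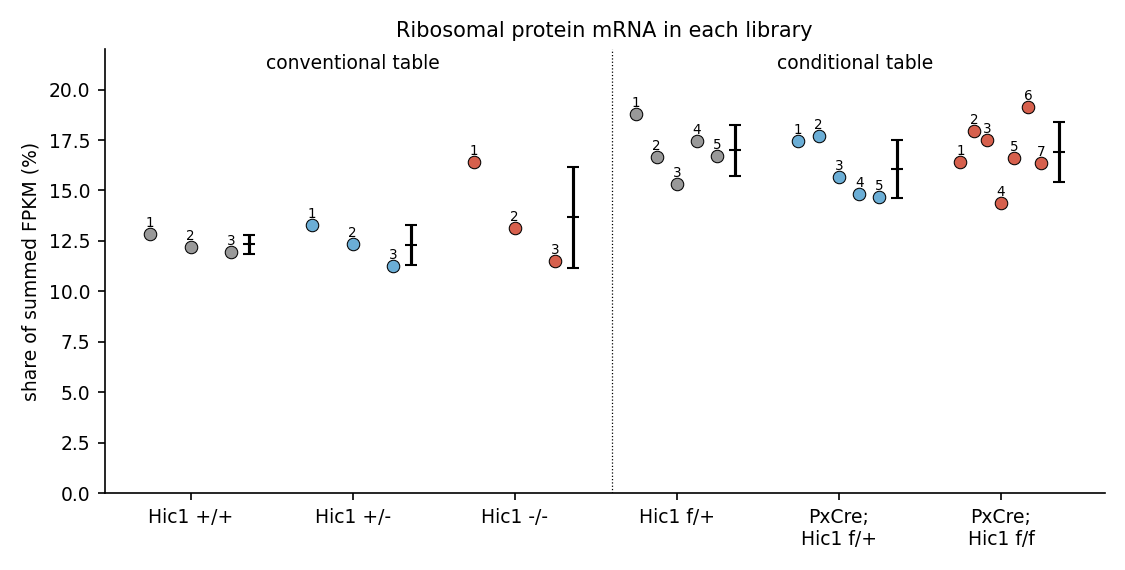
Share of the summed FPKM of all genes taken up by the 83 ribosomal protein genes, in percent, with 1 point per library labelled by replicate and bars for the group mean and SD. Conventional knockout replicate 1 at 16.4% lies above the other 8 conventional libraries (11.3% to 13.3%), and the conditional groups overlap between 14.4% and 19.1%.

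Within groups the members varied together. After each group's mean was subtracted, the median correlation between pairs of members was 0.900 over 9 conventional libraries, 0.869 without knockout replicate 1, and 0.914 over 17 conditional libraries, where 98.2% of pairs were positive. These are descriptions, since all pairs share the same libraries and the same scaling. The same measure was 0.641 and 0.379 among mitochondrial ribosomal protein genes, 0.8293 and 0.573 among respiratory chain genes, 0.0986 and 0.415 among translation factors and 0.0834 and 0.190 among ribosome biogenesis factors, for the conventional and the conditional table. Without knockout replicate 1 the conventional values of these 4 lists were 0.570, 0.689, 0.298 and 0.106. Of the 81 members tested in the conditional libraries, 70 correlated at 0.8 or more with the median member. Only 5 did so at under 0.5: Rpl26, Rps27, Rpl39l, Rps4l and Rplp2. The first 2 shared their locus with a copy and Rpl39l was near 2 FPKM.

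The libraries that carried this shared movement were the same for most members. In control replicate 1, 76 of 81 members lay above the mean of the other controls, with a median difference of 0.28 on the log2 scale, whereas 45.1% of all tested genes did. In conditional knockout replicate 6, 79 members lay above the mean of their group (median 0.33, with 50.2% of all genes above), and in replicate 4 only Rpl39l did (1 of 81, median -0.38, with 50.1% of all genes above). Conditional heterozygote replicates 4 and 5 each had 3 members above the mean of the other libraries of their group (medians -0.20 and -0.19). Of all tested genes, 54.7% and 54.2% lay above it. The slope of log2(FPKM + 1) on log10 transcript length was steepest in control replicate 1 (-1.005) and conditional knockout replicate 6 (-1.03) and flattest in conditional knockout replicate 4 (-0.59), over a range of -1.03 to -0.59 for the table. Its part in the shared movement was not tested. Rpl7l1 varied least in size, with a mean coefficient of variation within groups of 2.33%, the lowest in the conditional table, followed by Rpl8 (4.27%) and Rpl28 (4.83%). The highest were Rpl39l (42.3%), Rps27 (24.4%) and Rpl34 (19.8%). Rpl7l1, Rpl8 and Rpl28 correlated with the median member at 0.54, 0.76 and 0.71.

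**Figure D3:**
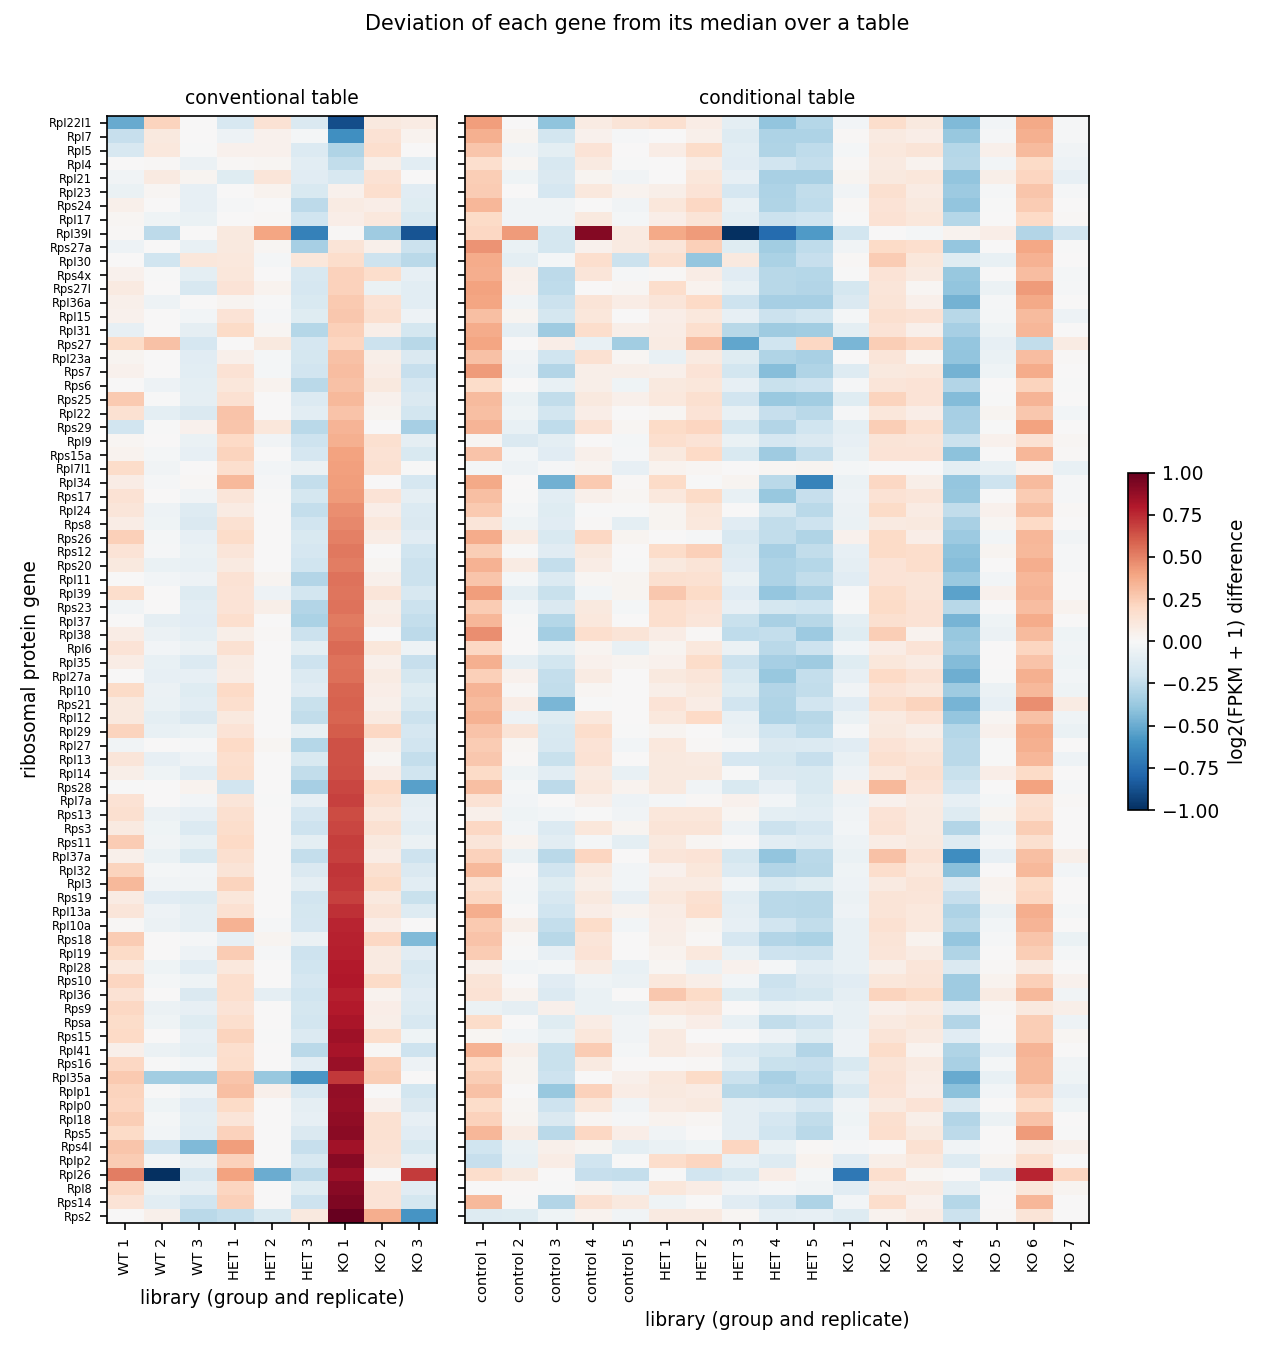
Difference of each of 80 ribosomal protein genes from its median over a table, in log2(FPKM + 1) from -1 (blue) to 1 (red), with genes in rows and libraries in columns, ordered by their value in conventional knockout replicate 1. Whole columns are red or blue together, most of all conventional knockout replicate 1, where the 5 genes at the top are blue.

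In conventional knockout replicate 1, 76 of 81 members lay above the median of the other 8 libraries, and 71 lay above all 8 of them (87.7%, with 42.9% of all tested genes). The median difference was 0.59 on the log2 scale, compared with 0.06 for all genes. For 78 respiratory chain genes it was 0.54, with 76.9% above all 8, and for 77 mitochondrial ribosomal protein genes 0.30, with 70.1%. Translation factors gave 0.09 and ribosome biogenesis factors 0.15. All 32 small-subunit genes and all 3 stalk genes were higher, as were 41 of 46 large-subunit genes. Rps2, a small-subunit protein near the mRNA entrance, showed the greatest difference, with 1411 FPKM compared with 442 to 859 in the other 8 (1.16). Rps14 followed with 2848 FPKM compared with 1291 to 1752 (0.99), then Rpl8 with 2587 compared with 1269 to 1598 (0.942). Next were the Rpl26 row with 76.6 compared with 20.1 to 68.4 (0.935) and Rplp2 with 3028 compared with 1447 to 1928 (0.92). The remaining 5 members, all of the large subunit, lay below all 8 other libraries. Rpl22l1 was at 149 FPKM compared with 195 to 324 (-0.93), Rpl7 at 626 compared with 812 to 1055 (-0.63), and Rpl5, which binds 5S RNA and MDM2, at 88.5 compared with 97.6 to 123 (-0.32). Rpl4 was at 1001 compared with 1102 to 1240 (-0.25) and Rpl21 at 155 compared with 160 to 192 (-0.17). Rpl7, Rpl21 and Rps2 are named for these values, after they were seen.

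The base composition of the transcripts, and over all genes their length, moved with these differences. All 5 members that were lower had transcripts of under 50% GC (40.6% to 49.2%). Of the 32 members under 50% GC, 27 were higher in replicate 1 with a median of 0.31, and all 49 members at 50% or more were higher with a median of 0.73. Across the 81 members the Spearman correlation of the difference with GC content was 0.64, and across 12660 tested genes with a known transcript it was 0.83. Genes and members are not independent replicates, and the figures are descriptions. Among all genes, 943 of 6052 under 50% GC and 5721 of 6608 at 50% or more were higher. The increase of log2(FPKM + 1) per 10 points of GC was 1.27 in this library, 0.37 and 0.40 in replicate 1 of the wild type and the heterozygote, and 0.01 to 0.25 in the other conventional libraries. Replicate 1 of each conventional group carried the letters CH in its column name and replicates 2 and 3 the letters CL, whose meaning the sources do not give. In the conditional table the slope on GC was -0.02 to 0.11. Knockout replicate 1 also had the steepest conventional slope on log10 transcript length, -1.825. It was -0.94 and -0.98 in replicate 1 of wild type and heterozygote and -0.82 to -0.58 in the other conventional libraries. The Spearman correlation of the difference in knockout replicate 1 with length was -0.37 across the 12660 genes and -0.10 across the 81 members. An alternative chosen after seeing the data took each library's slope on GC as a covariate. The median log2 fold change of the members between conventional knockout and wild type was then -0.03, with 25 of 81 above 0. The GC slope of knockout replicate 1 lay far from those of all other conventional libraries, so this covariate largely marked that library. The part of GC content or length in the differences was not tested.

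**Figure D4:**
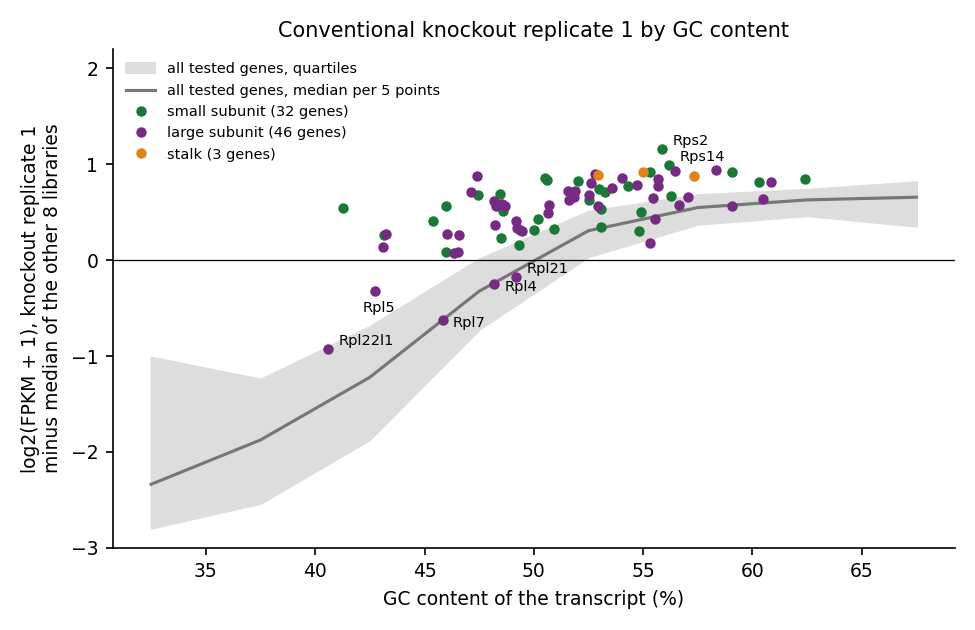
Difference of conventional knockout replicate 1 from the median of the other 8 libraries, in log2(FPKM + 1), against GC content of the transcript in percent. Points are ribosomal protein genes coloured by subunit, and the line and band are the median and quartiles of all tested genes in steps of 5 points, which rise from below -1 under 45% GC to above 0.5 from 55% GC. The 5 members below 0 are all under 50% GC, and Rps2 and Rps14 are labelled as the highest.

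No ribosomal protein gene passed the test between conventional knockout and wild type. In limma's test over 12717 genes, 0 of 81 members were called (lowest adjusted p = 0.596), where 3 genes (0.0236%) were called in all. No member had an unadjusted p under 0.05, which 7.06% of all tested genes had. The median log2 fold change of the members was 0.18 with 73 of 81 above 0, compared with -0.02 for all tested genes. Without knockout replicate 1 it was -0.02 with 29 of 81 above 0, compared with 0.00 for all genes, and again 0 members were called (lowest limma adjusted p = 0.460, with 0.0471% of all genes called). Rps27 alone then had an unadjusted p under 0.05, which 10.7% of all genes had. With the replicate number as a block, 0 members were called as well (lowest limma adjusted p = 0.193, that of Rpl35a), where 1 gene (0.00786%) was called in all. The median was 0.16 for small-subunit, 0.17 for large-subunit and 0.24 for stalk genes, and -0.03, -0.01 and -0.07 without that library. Within the column letters it was 0.46 for CH (1 library against 1) and 0.04 for CL (2 against 2, with 58 of 81 above 0). The intervals bounded the size of a change on the log2(FPKM + 1) scale, which understates changes of low genes. On that scale the 95% interval excluded a change of 2-fold in either direction for 76 of 81 members. Without knockout replicate 1 it did so for 79. With all libraries, the intervals that reached 2-fold were those of Rpl26, Rpl35a, Rpl39l, Rps2 and Rps4l.

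Rpl35a, a large-subunit protein mutated in some cases of Diamond-Blackfan anaemia, was at 901, 656 and 553 FPKM in knockouts and 664, 434 and 433 in wild type. The groups overlapped, and replicate 1 was the highest library of each group. The knockout was the higher in all 3 same-numbered pairs, a pairing that the labels do not give. How many other genes were so was not counted. Its log2 fold change was 0.46 (SE 0.28, limma adjusted p = 0.596), with an SE of 0.09 under the replicate block, and 0.27 without knockout replicate 1. Rps4l was at 102, 62.4 and 50.6 FPKM in knockouts and 68.6, 48.9 and 41.3 in wild type, likewise higher in all 3 same-numbered pairs (0.40, SE 0.29, and under the replicate block SE 0.09 with limma adjusted p = 0.264). Without knockout replicate 1 its log2 fold change was 0.12. Rpl39l was listed at 1.37, 0.84 and 0.30 FPKM in knockouts and 1.37, 0.97 and 1.36 in wild type (-0.32, SE 0.30, and -0.53, SE 0.31, without knockout replicate 1). With knockout replicate 1 left out, no member's knockout values lay wholly above wild type and those of 3 lay wholly below (Rpl30, Rpl39l and Rps27), where 11.6% and 15.7% of all tested genes did so. With all libraries 0 members stood clear of wild type in either direction, where 6.57% of all genes were wholly higher and 7.86% wholly lower.

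No member passed the test between heterozygote and wild type or between knockout and heterozygote, comparisons that share libraries with the one above. Between heterozygote and wild type 0 of 81 members were called by limma (lowest adjusted p = 1.00, with 0.0% of all genes called). None had an unadjusted p under 0.05, which 0.37% of all genes had. The fit also held the knockouts, so knockout replicate 1 entered its estimate of the spread. Without that library the median SE of the members was 0.12 instead of 0.197, and again 0 were called. The median log2 fold change was 0.00 with 38 of 81 above 0, and the members lay between -0.19 (Rps28) and 0.19 (Rps4l). No member stood clear of the wild type, where 2.43% of all genes were wholly higher and 1.38% wholly lower. On the log2(FPKM + 1) scale, the 95% intervals of 80 of 81 members excluded a 2-fold change, Rpl26 being the exception. For Rpl39l, near 1 FPKM, that does not exclude a 2-fold change of FPKM itself. Between knockout and heterozygote 0 of 81 were called (lowest limma adjusted p = 0.697, with 0.00786% of all genes called), and none had an unadjusted p under 0.05, which 4.58% of all genes had. The median was 0.18 with 72 of 81 above 0 with all libraries, and -0.01 with 33 of 81 above 0 without knockout replicate 1, when again none was called (lowest limma adjusted p = 0.4215). Rpl30 alone then had an unadjusted p under 0.05, which 8.03% of all genes had. No member stood clear of the heterozygotes with all libraries (3.72% of all genes wholly higher, 6.21% wholly lower). Without knockout replicate 1 Rpl30 and Rps27 lay wholly below them (8.06% of all genes wholly above and 15% wholly below). Within the letters the median was 0.42 for CH and 0.07 for CL. Rpl22l1 had a log2 fold change of -0.18 in that comparison with all libraries and of 0.14 without that replicate.

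**Figure D5:**
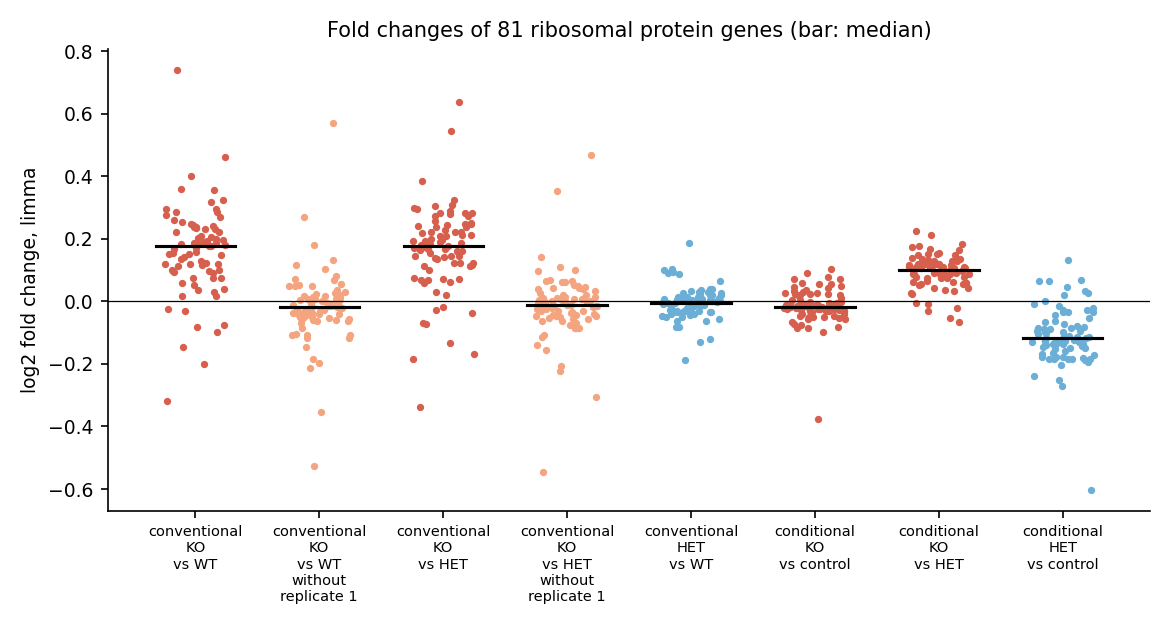
Limma log2 fold changes of the 81 tested ribosomal protein genes, 1 point per gene, with a bar at the median, for each comparison and, in the conventional table, also without knockout replicate 1. The median moves from 0.18 to -0.02 in conventional knockout against wild type when that library is left out, and lies between -0.12 and 0.10 in the conditional comparisons.

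No ribosomal protein gene passed the test when Hic1 was deleted in limb mesenchyme. Between conditional knockout and control 0 of 81 members were called by limma (lowest adjusted p = 0.925), where 34 of 12918 genes (0.263%) were called. None had an unadjusted p under 0.05, which 6.21% of all genes had. The median log2 fold change was -0.02 with 25 of 81 above 0, compared with 0.01 for all genes. Its sign was not stable: it was 0.04 without control replicate 1, 0.04 without conditional knockout replicate 4 and 0.05 with the column letters as a term. Within the letters it was -0.08 for NZ (2 libraries against 2, 10 of 81 above 0) and 0.17 for OB (5 against 1, 76 of 81 above 0), and the other letters held no pair of these groups. On the log2(FPKM + 1) scale, the 95% interval excluded a 2-fold change for all 81 members and a 1.5-fold change for 80 of them. For Rpl39l, near 2 FPKM, that does not exclude a 2-fold change of FPKM itself. No member stood clear of the control, where 0.364% of all genes were wholly higher and 0.325% wholly lower.

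Rps4l was at 67.2, 73.8, 80.2, 78.6 and 72.2 FPKM in controls and at 75.5 to 85.9 in conditional knockouts (median 77.4). Its log2 fold change was 0.09 (SE 0.05, limma adjusted p = 0.925), and all 7 knockout libraries lay above the control mean, though the groups overlapped. Rplp2, a P-stalk protein that recruits elongation factors, was at 1051, 1169, 1297, 1072 and 1232 FPKM in controls and at 1130 to 1384 in conditional knockouts (median 1255). It differed by 0.10 (SE 0.08, limma adjusted p = 0.954). Rpl39l was at 2.65, 3.25, 1.81, 4.99 and 2.38 FPKM in controls and at 1.59 to 2.32 (median 2.14) in conditional knockouts. Its log2 fold change was -0.38 (SE 0.23, limma adjusted p = 0.930), the most negative of the members.

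In conditional heterozygotes 72 of 81 members lay below the control on average, with a median log2 fold change of -0.12, compared with 0.00 for all tested genes. It was -0.05 without control replicate 1, -0.07 without heterozygote replicate 4 and -0.08 without heterozygote replicate 5. None was called by limma (lowest adjusted p = 0.747, with 0.00774% of all genes called). At an unadjusted p under 0.05 there were 3 members, Rpl39l and Rps26 among them, where 5.61% of all genes passed. None stood clear of the control (0.224% of all genes wholly higher, 0.294% wholly lower). Rps26 was at 2618, 2591, 2340, 2209 and 2123 FPKM in conditional heterozygotes and at 3386, 2767, 2355, 3014 and 2664 in controls. The groups overlapped, and every heterozygote lay below the control mean. Its log2 fold change was -0.25 (SE 0.12, limma adjusted p = 0.747). Rpl39l gave -0.60 (SE 0.25) at levels of 0.56 to 3.27 FPKM in the heterozygotes. Within the letters the median over members was -0.05 for NZ (1 library against 2) and -0.02 for OB (3 against 1), and it was -0.02 with the length slope as a covariate.

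Between conditional knockout and conditional heterozygote 75 of 81 members lay above 0 with a median of 0.10, compared with 0.00 for all genes, and again none was called by limma (lowest adjusted p = 0.930, with 0.0774% of all genes called). The median was 0.05 without heterozygote replicate 4, 0.06 without heterozygote replicate 5, 0.06 without knockout replicate 6 and 0.16 without knockout replicate 4. No member had an unadjusted p under 0.05, which 4.63% of all genes had, and none stood clear of the heterozygotes (0.209% of all genes wholly higher, 0.132% wholly lower). Rpl30 had the smallest p (0.21, SE 0.11, limma adjusted p = 0.930), and its row shared a locus with Gm12191. Rpl7l1, the next by p, was at 48.6 to 53.1 FPKM (median 51.2) in knockouts and at 53.1, 52.8, 52.1, 52.8 and 52.8 in heterozygotes (-0.05, SE 0.03), with overlapping groups. Within the letters the median was -0.05 for NZ (2 against 1, 19 of 81 above 0) and 0.21 for OB (5 against 3, 79 of 81 above 0). In NZ and OB the median thus had opposite signs, as it had between conditional knockout and control.

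Members with known roles in p53 signalling or in mouse development had overlapping groups, as had all 81 tested members with all libraries. Per comparison and direction, 0.132% to 7.86% of all tested genes stood clear. Rpl5, of the p53-linked pair, was at 97.6, 118 and 109 FPKM in the wild-type libraries and 88.5, 123 and 109 in the knockouts. Its partner Rpl11 was at 594, 582.0 and 573.5 FPKM in wild type and 868, 615 and 513 in knockouts. In knockout replicate 1 Rpl5 was thus the lowest and Rpl11 the highest of these values. Rpl38, needed in mouse for translation of a subset of Hox mRNAs, was at 501, 454 and 443 FPKM in wild type and 688, 474 and 395 in knockouts. In the conditional table it was at 1430, 1034, 816, 1161 and 1133 FPKM in controls and 795 to 1288 in knockouts (median 1001). Rpl24, the gene of the Belly spot and tail mouse, was at 342, 302 and 287 FPKM in wild type and 434, 328 and 285 in knockouts. Rps19 and Rps20, which darken the skin of mutant mice through p53, were at 457 to 530 and 1308 to 1478 FPKM in wild type, and at 428 to 805 and 1186 to 1965 in knockouts. Rps7, Rps6, Rpl27a, Rpsa (the laminin receptor precursor) and Rps27a (a ubiquitin fusion) likewise had overlapping groups in every comparison, as had Rplp0 and Rplp1 of the stalk.

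Genes of related function were described by lists chosen with earlier results known. Fau and Gnb2l1, which encode ribosomal proteins under other names (the latter is RACK1), had log2 fold changes of 0.27 and 0.29 between conventional knockout and wild type and of -0.02 and -0.01 without knockout replicate 1, and neither was called by limma. Of 23 translation factors and other genes with a pyrimidine motif, 43 ribosome biogenesis factors, 77 mitochondrial ribosomal protein genes and 78 respiratory chain genes, none was called by limma in either knockout comparison. The medians between conventional knockout and wild type were 0.01, 0.11, 0.07 and 0.11, and without knockout replicate 1 they were 0.01, 0.05, 0.00 and -0.07. In the conditional knockout against the control they were 0.01, -0.01, -0.01 and -0.01. Of 13 regulators of ribosomal protein genes none was called by limma. Mycn, the MYC-family gene of early limb mesenchyme, had the smallest p of them, with 26.1 ± 1.89 FPKM in conventional knockouts and 18.0 ± 0.71 in wild type (SD, n = 3 each, log2 fold change 0.51, SE 0.13, limma adjusted p = 0.422). Without knockout replicate 1 it gave 0.57 (limma adjusted p = 0.151). Myc was at 15.98 ± 0.99 compared with 19.2 ± 0.52 FPKM (-0.25, SE 0.11, limma adjusted p = 0.596), and gave -0.30 without knockout replicate 1. In the conditional knockout Myc gave -0.17 (SE 0.13, limma adjusted p = 0.950).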

How the data were processed

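The deposited tables held FPKM per gene and library for 26 libraries, which the authors made from stranded poly(A) RNA libraries, per the labels' protocols. The submitters' processing notes name bcl2fastq, TopHat2, Bowtie2, Cufflinks and mm10, with no versions. FPKM gives no read counts, so sequencing depth is unknown. The conventional and conditional tables were fitted apart. Genes averaging 1 FPKM or more (12717 and 12918) were tested as log2(FPKM + 1) with limma 3.58.1 in R 4.3.3, with all groups of a table in the fit, a trended prior and Benjamini-Hochberg adjustment over all tested genes, and a gene was called at an adjusted p under 0.05. Fold changes are on the log2(FPKM + 1) scale, which understates those of low genes. Summaries used Python 3.11.15, pandas 2.3.3, numpy 2.4.6 and scipy 1.17.1. The fit was tested on simulated data. Date-like symbols (27) were restored to gene names.

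The members and lists were chosen with earlier results of these data known. Members were named where they were among the 4 with the smallest p or the 2 most positive or negative fold changes of a comparison, the 5 highest or lowest levels, the 3 highest or lowest coefficients of variation, a symbol ending in l, l1 or x, a stalk protein, or a known mouse mutant or p53 link. The main fit had a term for group only and did not use the replicate number. For the replicate block and the same-numbered pairs, replicate numbers were taken to pair the conventional libraries. The ground was taken from these same data, where same-numbered libraries deviated together with correlations of 0.244 to 0.717. In 3 of 9 cases, all of replicate 2 or 3, a differently numbered library correlated more closely, so only replicate 1 correlated best with its own number in all 3 comparisons. Alternatives covered the pseudocount, the filter, scaling, weights, covariates, column letters, the replicate block and leaving out each library. Values of a few genes that these rules name are not reported here.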

Additional observations from a re-analysis of the deposited data

Results flagged for a closer look

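A single library lay far from the others of its group in 4 of 132 groups tested, and chance marks about 1 in 20 such groups. Rpl24 was at 799.7 FPKM in control replicate 1 of the conditional table and at 611.8 to 665.9 in the other 4 controls. Rps24 was at 1460 FPKM in the same library and at 1128 to 1159 in the others. Rps4l was at 89.89 FPKM in conditional heterozygote replicate 3 and at 73.8 to 77.73 in the rest of that group. Rps9 was at 1547 FPKM in control replicate 3 and at 1407 to 1438 in the other controls.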

How the results depend on the processing

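No member was called by limma under any alternative run, in any of the 6 comparisons. The median log2 fold change of the members between conventional knockout and wild type, 0.18, was 0.26 with median scaling, 0.11 with array weights, 0.02 with quantile normalization and -0.01 with the length slope as a covariate, and ran from -0.02 to 0.34 with 1 library left out. With 1 library left out it ran from -0.08 to 0.08 between conventional heterozygote and wild type, -0.01 to 0.34 between conventional knockout and heterozygote, -0.07 to 0.04 between conditional knockout and control, -0.17 to -0.05 between conditional heterozygote and control and 0.05 to 0.16 between conditional knockout and heterozygote. Among named members the sign turned as follows. Rpl22l1 between conventional knockout and heterozygote gave 0.09459 with the GC slope, 0.08806 with array weights and 0.07235 with the length slope, and -0.3516 to 0.1431 with 1 library left out. Rps27 gave 0.04965 between conditional knockout and control with array weights, and between conditional knockout and heterozygote 0.01372 with the column letters as a term and -0.1899 to 0.01688 with 1 library left out. Between conventional heterozygote and wild type Rpl26 ran from -0.2967 to 0.47 and Rps24 from -0.1264 to 0.004525 with 1 library left out. The cause was not tested. With the replicate block the conventional knockout median stayed at 0.1757 and 0 members were called in every comparison. In the conditional table same-numbered libraries correlated at -0.308 to 0.444, so the numbers name libraries only, and the block gave a median of -0.07 between conditional knockout and control. Depth is unknown, so the precision of low genes such as Rpl39l cannot be set from counts.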
